A study of Homo sapiens with 6 samples.

Results

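The replication-type histone cluster genes were taken as every gene of the deposited count table that is protein-coding and whose symbol starts with HIST, the older naming of histone genes. This gave 71 of the 58735 genes in the table. Of these, 6 encode the linker histone H1, 17 encode H2A, 18 encode H2B, 15 encode H3 and 15 encode H4. The symbol also gives the cluster: 55 genes belong to HIST1 on chromosome 6, 12 to HIST2 and 3 to HIST3 on chromosome 1, and HIST4H4 stands alone on chromosome 12.

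Gene-level RNA-seq read counts came from 6 libraries of T3M4, an established human pancreatic ductal adenocarcinoma cell line, with no treatment. Titles and genotype labels divide them into 3 libraries labelled WT (titles T3M4WT, genotype described as MUC16 expressing) and 3 labelled knockout (titles T3M4M16, genotype MUC16 knockout), and the series compares both genotypes. All cells were grown to near confluence. Separate cultures for the libraries of 1 group are not named in the labels, nor whether the knockout is 1 clone, so p-values measure the spread between these libraries, which may be technical.

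The targeted gene is given first; its gene-level count cannot test the edit itself, whose position is not given in the sources used here. MUC16, which encodes a large membrane mucin, had 98, 144 and 90 counts in replicates 1 to 3 under the WT label, against 292, 504 and 323 under the knockout label. As CPM, counts scaled to library size, this was 4.36 ± 0.865 against 15.2 ± 4.29 (SD, n = 3 each), a log2 fold change of 1.79 ± 0.17 (SE, edgeR quasi-likelihood adjusted p = 4.79e-09). MUC16 RNA was therefore higher in the libraries labelled knockout, and directions below follow the labels. Library totals ran from 19088927 to 28612621 counts. The 7 epithelial markers, keratins KRT7, KRT8, KRT18 and KRT19 with EPCAM, CDH1 and CLDN4, were present. Their summed level was 3584 to 3664 CPM in the libraries labelled WT and 5604 to 5873 CPM in those labelled knockout. All 7 had a mean above 64 CPM and were called higher, beside 22.0% of all genes tested at that level.

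Replication-type histone genes supply the core histones H2A, H2B, H3 and H4 and the linker H1 that package newly made DNA, and cells transcribe them mainly in S phase. Their mRNAs usually end at a short stem-loop in place of a poly(A) tail: the stem-loop binding protein SLBP holds the loop, and a complex containing U7 RNA directs the cut behind it. NPAT, at the histone locus body, drives their transcription. Many of the genes also give longer polyadenylated mRNAs, best known from cells that have stopped dividing. Whether these libraries were made from poly(A)-selected RNA is not given in the sources used here; the labels state total RNA and a general RNA library kit. In bulk RNA, fewer cells in S phase and less histone mRNA per cell cannot be told apart.

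The stem-loop was searched in the GENCODE 29 transcripts (GRCh38) of each gene, on the coding strand behind the coding sequence. The pattern was GGCYCT (Y for C or T), a loop of 4 bases starting with T, and then AGRGCC (R for A or G). It was found in 32 of the 71 genes. Of the 6 kinds that differ in loop or stem, 5 are shown, because it is the feature that defines these mRNAs; capitals mark the 4 loop bases.
HIST1H2AC: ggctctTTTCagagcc
HIST1H2BD: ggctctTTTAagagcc
HIST1H3E: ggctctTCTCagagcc
HIST1H4I: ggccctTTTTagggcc
HIST1H4H: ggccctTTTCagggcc
The loop and stem of HIST1H2AC were the commonest, in 17 genes. All 8 H4 genes in which a stem-loop was found had the stem shown for HIST1H4I and HIST1H4H, and 5 of them shared the loop of HIST1H4H.

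How far the annotated transcript runs past this stem-loop differs widely. In 23 genes a transcript continued for more than 100 bases, for example 1128 bases in HIST1H2AC, 1655 bases in HIST1H4H and 1862 bases in HIST1H3E. In 9 genes the transcript with the stem-loop ended within 100 bases of it, as in HIST1H2AE (51 bases) and HIST1H2BD (39 bases); HIST1H2BD has a second annotated transcript, which is spliced to another 3′ end and lacks the stem-loop. The annotation of 35 genes, HIST1H2BK and HIST1H1C among them, held no 3′ untranslated region, so reads from such a region could not be counted to them. A further 4 had a 3′ untranslated region with no such stem-loop.

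Promoter windows of RefSeq (GRCh38.p14, 250 bases before to 50 after the start) matched 61 of the 71 genes, and 4 stretches upstream of genes that were higher in the libraries labelled knockout are shown to let the shared letters be seen. HIST1H2AC and HIST1H2AE lie head to head with the H2B genes HIST1H2BC and HIST1H2BG. The HIST1H2AC stretch is chr6:26123927-26124144 (plus strand), the whole gap between that pair, and that of HIST1H2AE is chr6:26216693-26216920 (plus strand). The HIST1H3H stretch is chr6:27809801-27810050 (plus strand) and that of HIST1H4K is chr6:27831561-27831810 (minus strand). Capitals mark TATAAA (the TATA box), the CCAAT box, the octamer ATTTGCAT and, as the core of the H4 subtype element, GGTCCG, each on either strand; the TATA that ends the HIST1H2AC stretch is the start of a TATAAA that runs on past the annotated start.
HIST1H2AC: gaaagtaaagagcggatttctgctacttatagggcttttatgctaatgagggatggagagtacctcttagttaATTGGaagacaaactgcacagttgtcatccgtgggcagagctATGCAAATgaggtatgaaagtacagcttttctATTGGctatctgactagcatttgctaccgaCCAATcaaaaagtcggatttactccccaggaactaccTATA
HIST1H2AE: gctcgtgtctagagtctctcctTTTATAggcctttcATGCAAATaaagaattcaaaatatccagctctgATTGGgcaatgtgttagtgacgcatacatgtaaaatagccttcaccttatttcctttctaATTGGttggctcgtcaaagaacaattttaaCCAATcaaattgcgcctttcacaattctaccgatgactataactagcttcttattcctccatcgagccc
HIST1H3H: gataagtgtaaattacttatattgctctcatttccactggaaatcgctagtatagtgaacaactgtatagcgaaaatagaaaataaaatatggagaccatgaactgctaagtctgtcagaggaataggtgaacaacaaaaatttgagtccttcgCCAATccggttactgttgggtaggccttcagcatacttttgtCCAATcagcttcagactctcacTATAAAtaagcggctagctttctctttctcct
HIST1H4K: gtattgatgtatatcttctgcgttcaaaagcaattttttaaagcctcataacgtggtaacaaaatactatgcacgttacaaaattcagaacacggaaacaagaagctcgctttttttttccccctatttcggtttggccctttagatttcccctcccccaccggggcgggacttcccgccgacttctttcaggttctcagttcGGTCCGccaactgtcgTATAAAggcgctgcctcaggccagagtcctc
These letters fell by histone type. CCAAT was in all promoter windows of H1, H2A, H2B and H3 genes but in 23.1% of H4 windows, against 34.6% of all 35116 RefSeq promoter windows. The octamer was in 78.6% of H2A and 77.8% of H2B windows, in none of the H1, H3 and H4 windows, and in 1.8% of all windows. GGTCCG was in 92.3% of H4 windows and 11.3% of all windows, and TATAAA in 67.2% of histone windows and 11.5% of all. A match is only a run of letters and does not show that a factor binds there.

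Histone cluster genes took a small share of the counts, and a larger one in the libraries labelled knockout. Together the 71 genes held 0.0420%, 0.0443% and 0.0434% of all counts under the WT label, against 0.0698%, 0.0672% and 0.0722% under the knockout label. The groups did not overlap: the means were 0.0432% ± 0.00117 and 0.0697% ± 0.00254 (SD, n = 3 each). On the TMM-scaled CPM scale, which adjusts library size for RNA composition, the sum went from 444 ± 11.6 to 679 ± 27.6 CPM, a ratio of 1.53. A few genes carried this sum: of the 84313 histone counts over the 6 libraries, 59.9% fell on 4 genes (HIST1H2BK, HIST1H2AC, HIST1H1C and HIST1H2BD) and 83.7% on 10.

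Of the 71 genes, 38 passed the filter on low counts and were tested; 6 of the other 33 had no count in any library. With edgeR's quasi-likelihood test (Benjamini-Hochberg adjusted p under 0.05), 20 of the 38 were higher in the libraries labelled knockout and 2 were lower. Among all 16655 genes tested, 52.6% were called in either direction, 26.7% higher and 25.9% lower. The counts of calls by histone type below stand beside these shares. The log2 fold change was above 0 in 33 of the 38, with a median of 0.49 beside 0.0035 for all genes tested. In 21 of the 38 every library labelled knockout lay above every library labelled WT, and in 2 every one lay below; among all genes tested the groups separated that way in 30.0% and 29.0%. The authors' deposited table lists 64 of the 71, of which 19 had their adjusted p under 0.05, all higher; each of the 19 was also called higher here.

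**Figure D1:**
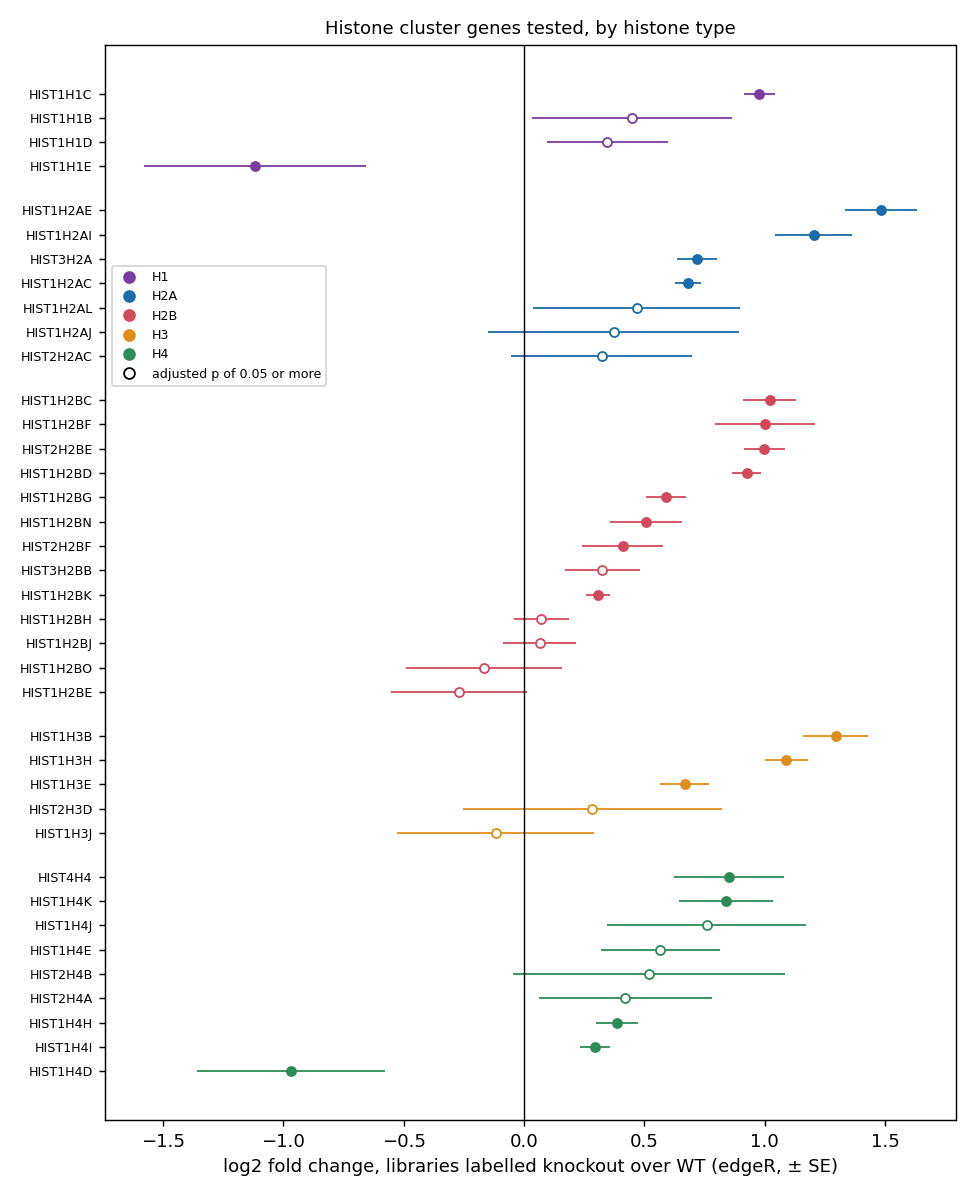
Log2 fold changes (libraries labelled knockout over WT, x axis, edgeR estimate ± SE) of the 38 histone cluster genes tested, grouped by histone type; filled points have an adjusted p under 0.05. The 20 genes called higher come from all 5 histone types, but H1 gives only 1 of its 4 tested genes. That share is near the 26.7% of all genes tested that were called higher. The filled points left of 0 are HIST1H1E and HIST1H4D.

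The linker histone genes were dominated by HIST1H1C, which encodes the somatic linker H1.2 (chr6:26055787-26056428, minus strand). It measured 40.2, 46.0 and 44.4 CPM in the libraries labelled WT and 79.7, 81.0 and 95.7 CPM in those labelled knockout. The groups were far apart, and HIST1H1C rose with a log2 fold change of 0.98 ± 0.07 (SE, edgeR adjusted p = 1.82e-11). HIST1H1E, encoding H1.4, lay under 1 CPM in every library, at 0.986, 0.668 and 0.851 CPM against 0.460, 0.622 and 0.102 CPM. Its groups did not overlap and it was called lower (-1.12 ± 0.46, edgeR adjusted p = 0.0453), but the call ended without WT replicate 1 or 3 or knockout replicate 1 or 3, where the adjusted p was 0.144, 0.0926, 0.0659 and 0.267, and under DESeq2 (0.086). HIST1H1D (0.35 ± 0.25) and HIST1H1B (0.45 ± 0.41) did not pass the test, and HIST1H1A and the testis gene HIST1H1T were too low to test. The summed level of the 6 H1 genes went from 46.7 ± 2.50 to 89.0 ± 8.20 CPM (ratio 1.90), nearly all of it HIST1H1C.

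H2A pairs with H2B in the nucleosome, and 7 of the 17 H2A genes were tested, 4 of them called higher and none lower. HIST1H2AC (chr6:26124145-26139116, plus strand) was the most abundant, with 52.5, 59.4 and 59.0 CPM against 91.2, 90.5 and 92.1 CPM. It rose by 0.68 ± 0.05 on the log2 scale (edgeR adjusted p = 1.6e-10), and the 3 libraries labelled knockout lay within 2 CPM of one another. HIST1H2AE (chr6:26216975-26217483, plus strand), at 2.81, 4.05 and 3.18 against 9.86, 7.96 and 10.3 CPM, had the largest log2 fold change of the 38 genes, 1.48 ± 0.15 (edgeR adjusted p = 1.46e-08). HIST3H2A, the H2A gene of the HIST3 cluster (chr1:228456979-228457873, minus strand), measured 13.5, 12.8 and 14.1 against 24.0, 21.2 and 21.3 CPM (0.72 ± 0.08, edgeR adjusted p = 1.55e-07).

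HIST1H2AI, at 2.77, 2.86 and 4.48 against 7.51, 7.93 and 7.57 CPM, was also called higher (1.20 ± 0.16, edgeR adjusted p = 9.3e-07). Of its 100-base stretches 57.7% also occur in HIST1H2AJ, so how reads were divided between these copies is uncertain. HIST2H2AC (0.32 ± 0.38), HIST1H2AL (0.47 ± 0.43) and HIST1H2AJ (0.37 ± 0.52) all lay under 1 CPM and their groups overlapped. HIST2H2AA3, just below the filter with a mean of 6.67 counts, shares all its 100-base stretches with HIST2H2AA4. Summed over the 17 genes, H2A went from 79.3 ± 5.04 to 133 ± 2.84 CPM (ratio 1.68).

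H2B genes gave the most counts of any type, and 8 of the 13 tested (of 18) were called higher and none lower. HIST1H2BK (chr6:27146418-27146798, minus strand) was the highest histone cluster gene both in CPM and per length, with 368 CPM per kilobase averaged over the 6 libraries. It measured 121, 131 and 124 CPM in the libraries labelled WT and 163, 144 and 158 CPM in those labelled knockout. Those groups did not overlap, yet its change was among the smallest of the genes called (0.31 ± 0.05, edgeR adjusted p = 1.37e-05). Of the 100-base stretches of HIST1H2BK 28.4% also occur in genes named H2BFS, so how reads from these stretches were divided is uncertain. HIST1H2BD (chr6:26158146-26171349, plus strand), at 39.5, 41.7 and 37.8 against 77.2, 69.4 and 79.6 CPM, rose by 0.93 ± 0.06 (edgeR adjusted p = 8.27e-12). HIST2H2BE, the main H2B gene of the HIST2 cluster (chr1:149884459-149886652, minus strand), measured 11.9, 14.9 and 12.4 against 26.2, 26.5 and 25.8 CPM (1.00 ± 0.09, edgeR adjusted p = 1.15e-09), so every library labelled knockout was above every library labelled WT.

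HIST1H2BC (chr6:26114873-26123926, minus strand) was at 5.31, 5.79 and 5.91 against 11.9, 11.1 and 11.5 CPM (1.02 ± 0.11, edgeR adjusted p = 4.26e-08). HIST1H2BG (chr6:26215159-26216692, minus strand) was at 12.5, 12.8 and 13.0 against 18.4, 19.3 and 20.0 CPM (0.59 ± 0.08, edgeR adjusted p = 2.36e-06). HIST1H2BF, a low gene, was at 1.25, 1.82 and 1.88 against 2.96, 3.54 and 3.34 CPM (1.00 ± 0.21, edgeR adjusted p = 0.000311). In all 3 genes the groups were apart. HIST1H2BN also passed (0.51 ± 0.15, edgeR adjusted p = 0.00626); it, HIST1H2BH and HIST1H2BJ are named here after their values were seen.

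Not every abundant H2B gene rose. HIST1H2BH, at 10.3, 9.13 and 12.5 CPM against a mean of 11.1 ± 1.02 CPM, had a log2 fold change of 0.07 ± 0.11, and HIST1H2BJ, at 4.32, 4.27 and 4.57 against 3.99, 5.36 and 4.33 CPM, one of 0.06 ± 0.15. Both were well counted (means of 272 and 112 counts a library), and their groups overlapped. HIST2H2BF was close to the threshold (0.41 ± 0.17, edgeR adjusted p = 0.0452): the adjusted p was 0.0748, 0.153, 0.137 and 0.0928 without knockout replicate 1, knockout replicate 2, WT replicate 1 or WT replicate 3, and 0.0988 under DESeq2. HIST3H2BB had groups apart but did not pass (0.33 ± 0.16, edgeR adjusted p = 0.0857). Over the 18 genes, H2B went from 227 ± 7.25 to 324 ± 14.8 CPM (ratio 1.42).

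H3 carries most of the studied histone tail marks, and 3 of the 5 H3 genes tested (of 15) were called higher. HIST1H3H (chr6:27810064-27811300, plus strand), the most abundant, was at 11.9, 12.8 and 11.1 against 23.1, 25.1 and 28.0 CPM (1.09 ± 0.09, edgeR adjusted p = 3.9e-10). HIST1H3E (chr6:26224199-26227473, plus strand) was at 8.61, 8.87 and 7.97 against 12.3, 14.3 and 13.8 CPM (0.67 ± 0.10, edgeR adjusted p = 6.37e-06). HIST1H3B (chr6:26031650-26032060, minus strand), one of the genes encoding H3.1, was at 3.41, 3.08 and 4.07 against 8.28, 8.51 and 8.97 CPM (1.30 ± 0.14, edgeR adjusted p = 2.84e-08). In each of these genes the lowest library labelled knockout exceeded the highest labelled WT. HIST1H3J (-0.12 ± 0.41) and HIST2H3D (0.28 ± 0.54), which was the gene just inside the filter, lay under 1 CPM and overlapped. The summed H3 level went from 25.6 ± 0.922 to 49.2 ± 3.57 CPM, the highest ratio of the 5 types (1.92).

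H4, the most conserved core histone, showed the smallest summed ratio, 1.28 (65.2 ± 2.82 to 83.3 ± 5.29 CPM). Of 15 genes 9 were tested, with 4 called higher and 1 lower. HIST1H4I (chr6:27138588-27139881, plus strand) held most of the H4 counts, at 39.4, 39.9 and 38.8 CPM against a mean of 48.4 ± 3.45 CPM with a lowest library of 44.4 (0.30 ± 0.06, edgeR adjusted p = 0.000279). HIST1H4H (chr6:26277609-26285638, minus strand) was at 14.4, 15.2 and 15.6 against 17.9, 21.6 and 19.5 CPM (0.39 ± 0.09, edgeR adjusted p = 0.000602). Both were modest changes with groups apart. HIST4H4, the single gene on chromosome 12 (chr12:14767999-14771131, minus strand), was at 1.40, 1.86 and 1.43 against 2.66, 3.54 and 2.32 CPM (0.85 ± 0.23, edgeR adjusted p = 0.00311).

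HIST1H4K, at 1.63, 2.12 and 1.79 against 3.48, 3.26 and 3.21 CPM, was called higher too (0.84 ± 0.20, edgeR adjusted p = 0.000901). All of its 100-base stretches occur in HIST1H4J as well, which had a log2 fold change of 0.76 ± 0.41 and did not pass, so the division of reads between them is uncertain. HIST1H4D lay near 1 CPM, at 0.834, 0.817 and 1.34 against 0.767, 0.311 and 0.477 CPM, and was called lower (-0.97 ± 0.39, edgeR adjusted p = 0.0414). That call ended without knockout replicate 2, knockout replicate 3 or WT replicate 3 (adjusted p 0.187, 0.11 and 0.207) and under DESeq2 (0.0788).

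HIST2H4B varied widely among replicates: 188, 19 and 10 counts under the WT label against 43, 43 and 230 under the knockout label. WT replicate 1 and knockout replicate 3 were high and the other libraries low in each group, so that the difference (0.52 ± 0.56, edgeR adjusted p = 0.462) was within the replicate spread; without WT replicate 1 it was 2.77 (edgeR adjusted p = 8.29e-05), and without knockout replicate 3 its sign turned, to -0.55 (edgeR adjusted p = 0.51). Of its 100-base stretches 97.1% also lie in other genes, chiefly the near-identical HIST2H4A, which had 13, 26 and 12 against 19, 20 and 28 counts (0.42 ± 0.36, edgeR adjusted p = 0.343).

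**Figure D2:**
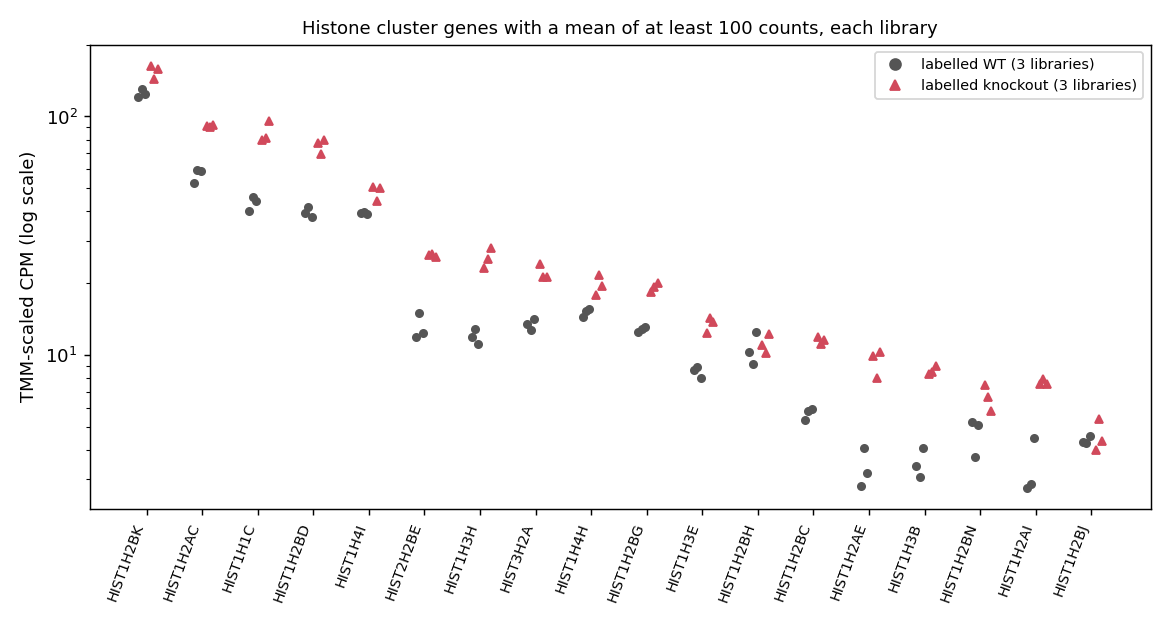
TMM-scaled CPM (y axis, log scale) of the 18 histone cluster genes with a mean of at least 100 counts a library, 1 point per library: circles labelled WT, triangles labelled knockout. In 16 genes all triangles lie above all circles; HIST1H2BH and HIST1H2BJ are the exceptions.

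Genes with enough counts to be measured well were mostly higher. Of the 18 genes with a mean of at least 100 counts a library, 16 were called higher and none lower; of the 20 tested genes with fewer, 4 were called higher and 2 lower. Split by level, 7 of 7 genes between 16 and 64 CPM and 3 of 3 above 64 CPM were called higher, where 26.1% and 22.0% of all genes at those levels were. Between 4 and 16 CPM it was 6 of 9 (34.6% of all genes), between 1 and 4 CPM 4 of 8 (32.0%), and under 1 CPM 0 of 11 (20.3%), with both of the lower calls. Among all genes the median log2 fold change itself differed by level, at 0.22 under 1 CPM, 0.26 from 1 to 4 CPM and -0.11 above 64 CPM, whereas the histone genes tested had medians of 0.32, 0.54 and 0.68 there.

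**Figure D3:**
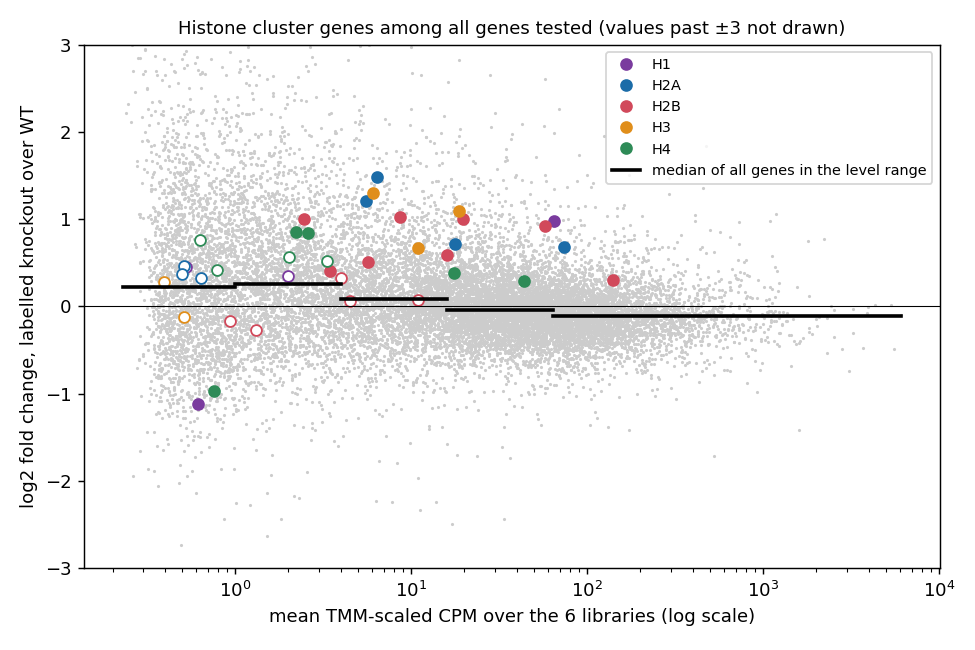
Log2 fold change (y axis) against mean TMM-scaled CPM over the 6 libraries (x axis, log scale) for all genes tested (grey) and the histone cluster genes (coloured by type, filled where the adjusted p was under 0.05). Black bars give the median of all genes in each level range, from 0.22 at the left to -0.11 at the right; every histone gene above 16 CPM is filled and above 0.

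By cluster, the calls stand beside the 26.7% of all genes tested that were higher. In HIST1, 29 of 55 genes were tested, 16 were called higher and 2 lower, with a median of 0.51 and a summed ratio of 1.51. HIST2 had 2 of 6 tested genes called higher, a share close to that background: HIST2H2BE, and HIST2H2BF with the unstable call described above. Its summed ratio was 1.75, made up mostly of HIST2H2BE, and its 4 H3 genes, all under 1 CPM, had a ratio of 0.916. HIST3 had 1 of 2 (HIST3H2A) with a ratio of 1.56, and HIST4H4 was higher by itself, at 1.81.

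Within HIST1 the genes stand in 4 blocks on chromosome 6. The first (25726132 to 25727292) holds the testis genes HIST1H2AA and HIST1H2BA and had 2 counts in all. The second (26017085 to 26285638) had 10 of 16 tested genes called higher and both lower calls, with a summed ratio of 1.70. The third (27125897 to 27147515), which holds HIST1H2BK and HIST1H4I, had 2 of 3 called higher and a ratio of 1.23, and the fourth (27807444 to 27893843) 4 of 10 with 1.85. Beside these counts, 26.7% of all genes tested were called higher and 25.9% lower. The differences between these blocks were not tested.

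Genes beside the clusters are given for comparison. These are protein-coding genes without a HIST name, from 1 Mb before the first member of a cluster to 1 Mb after the last. For HIST2 this stretch is long, since HIST2H3PS2 begins at 143905556 and the last member ends at 149887916. Genes counted there can therefore lie further than 1 Mb from any histone gene. Among all genes tested, 26.7% were called higher and 25.9% lower. Around HIST1, 14 of 29 tested neighbours were called higher and 3 lower, with a median log2 fold change of 0.28, so higher values there were not confined to histone genes. Around HIST2 it was 14 higher and 22 lower of 56 (median -0.12), around HIST3 5 and 6 of 19 (-0.08), and around HIST4H4 2 and 2 of 9 (0.12). Around HIST2, HIST3 and HIST4H4 the share called higher did not exceed that of all genes. Of 19 histone pseudogenes 6 were tested and 1 was called higher, also not above that share.

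Head-to-head neighbours were not always called together. There were 12 head-to-head pairs with starts within 500 bases, and both genes could be tested in 5. HIST1H2BO was counted in a pair with HIST1H3J and in another with HIST1H2AM, whose annotations overlap on the same strand. Both were called higher in 2, HIST1H2BC with HIST1H2AC across 218 bases and HIST1H2BG with HIST1H2AE across 282 bases, whose upstream letters are printed above. HIST2H2BE and HIST3H2A were called higher while their partners HIST2H2AC and HIST3H2BB did not pass, and HIST1H3J and HIST1H2BO were both not called. Levels within a pair also differed: HIST1H2BK had 21000 counts over the 6 libraries and its partner HIST1H2AH 18, whereas HIST1H2AC had 11120 and HIST1H2BC 1284.

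Calls by gene model are given beside the 26.7% of all genes tested that were higher. Of the 23 genes with a transcript that runs over 100 bases past the stem-loop, 19 were tested and 13 called higher. Of the 9 whose stem-loop transcript ends near the stem-loop, HIST1H2BD with its spliced form included, 4 were tested and 3 called higher (HIST1H2BD, HIST1H2AE and HIST1H2AI). The 35 genes without an annotated 3′ untranslated region had 13 tested, 4 higher (HIST1H2BK, HIST1H1C, HIST1H3B and HIST1H4K) and 1 lower. Their share of higher calls was near that background, and the remaining 4 genes had 2 tested and 1 lower. Per length, the median level was 1.73 CPM per kilobase in the extended models, 0.486 in those ending near the stem-loop and 0.326 in those without a 3′ untranslated region. Reads cannot be assigned to the stem-loop or the polyadenylated form of a gene from these gene-level counts.

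Counts of 0 went with overlapping annotation in some genes. HIST1H3D and HIST1H2AD lie within AL031777.3, which is on the same strand and had 513 counts, HIST1H2AK lies within HIST1H2BN on the opposite strand, and HIST2H3PS2 lies within AC239798.4. HIST1H2AA and HIST1H3C had 0 counts without such an overlap. The counting's use of strand is not stated, so reads from overlapping genes cannot be told apart. Over the table, 16 members share over 50% of their 100-base stretches with another gene. Of these, 7 were tested and 2 called higher, a share near the 26.7% of all genes tested that were called higher.

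The histone genes outside these clusters, many of which give polyadenylated mRNAs and encode variants used outside replication, went in both directions. Of the 22 found, 11 were tested, with 5 higher and 4 lower (median -0.06). Of these 11, 9 lay above 64 CPM, where 22.0% of all genes tested were called higher and 49.9% lower. H2AFJ, an H2A variant gene, rose from 58.6 ± 5.47 to 110 ± 3.81 CPM (0.90 ± 0.06, edgeR adjusted p = 5.59e-12), and H1F0, the linker histone of non-dividing cells, rose by 0.48 ± 0.04. H2AFY (macroH2A1, -0.52 ± 0.04), H2AFX (the damage-marked H2A.X, -0.51 ± 0.04), CENPA (the centromeric H3, -0.48 ± 0.08) and H2AFZ (H2A.Z, -0.35 ± 0.04) fell. The H3.3 gene H3F3B rose by 0.23 ± 0.04, and H3F3A, which encodes the same protein, had -0.06 ± 0.04 and did not pass.

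The lists that follow hold well-expressed genes. Among all genes tested at 16 to 64 CPM, 26.1% were called higher and 32.8% lower (median -0.04). Above 64 CPM, 22.0% were called higher and 49.9% lower (median -0.11). Of 24 factors for histone mRNA transcription, stem-loop or general 3′ processing, and RNA tailing or decay, 23 lay above 16 CPM. Of the 24, 3 were higher and 14 lower (median -0.20). The 14 include UPF1, CPSF1, TENT4A, WDR33, FIP1L1 and ERI1, so they are not all stem-loop processing factors. The higher ones were SLBP (0.20 ± 0.05), the H4 transcription factor gene HINFP (0.20 ± 0.08) and TUT7 (0.20 ± 0.07), which adds uridines to histone mRNAs during decay. TENT4A, a terminal nucleotidyltransferase gene (-0.49 ± 0.04), SRRT (ARS2, which links the cap to 3′ processing, -0.47 ± 0.04) and the cap-binding gene NCBP1 (-0.40 ± 0.05) fell the most, and NPAT was at 47.1 ± 0.992 against 48.7 ± 0.661 CPM (0.05 ± 0.05, not called). Histone chaperone genes, 17 of 28 above 64 CPM, had 1 higher, ASF1B (0.16 ± 0.05), and 12 lower (median -0.11). The share called lower was within the background of those levels, and the share called higher was below it. Of the 12, the CENP-A chaperone HJURP (-0.65 ± 0.05) and nucleophosmin NPM1 (-0.65 ± 0.05) fell the most.

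Of 37 genes of S phase entry and DNA replication, a list that also holds SLBP, 26 lay above 64 CPM. In this list 5 were higher and 15 lower (median -0.07). Again the share called lower was within the background of those levels. The share called higher was below the 26.1% at 16 to 64 CPM and the 22.0% above 64 CPM. E2F1 (0.36 ± 0.05) and the replicative helicase gene MCM6 (0.32 ± 0.05) rose, and the sliding clamp PCNA rose by 0.11 ± 0.04. POLA1, the catalytic subunit of DNA polymerase alpha (-0.46 ± 0.06), cyclin A gene CCNA2 (-0.41 ± 0.05), CDC45 (-0.41 ± 0.04) and thymidylate synthase TYMS (-0.38 ± 0.07) fell. Of 13 tested genes listed for quiescence and differentiation, 5 were higher and 2 lower (median 0.09), beside 26.7% and 25.9% of all genes tested. CDKN1C (1.41 ± 0.15), CCNG2 (1.26 ± 0.10), BTG1 (0.95 ± 0.06) and CDKN2B (0.68 ± 0.07) rose, and the cyclin gene CCND2 (-1.16 ± 0.33) and TOB1 (-0.18 ± 0.05) fell. The 6 not called included CDKN1A (-0.01 ± 0.05) and CDKN1B (-0.10 ± 0.06). These lists share the libraries of the histone comparison, so the side-by-side counts are not independent of it.

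**Figure D4:**
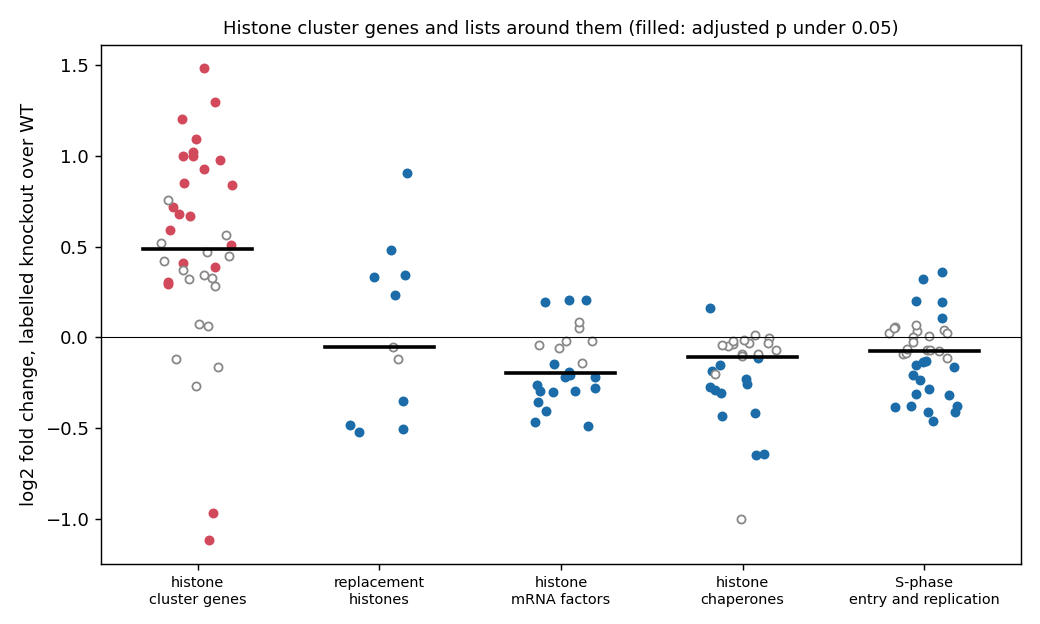
Log2 fold changes (y axis) of the histone cluster genes tested and of 4 lists around them, 1 point per gene, filled where the adjusted p was under 0.05, with the median as a black bar (horizontal scatter only separates points). The histone cluster genes have a median of 0.49, and the lists have medians from -0.20 (histone mRNA factors) to -0.06 (replacement histones).

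RNAs listed as lacking a poly(A) tail were almost absent, and the reason for this was not tested. Of 33 such genes only RN7SL2, a signal recognition particle RNA, was tested, and it was higher (13.8 ± 0.824 against 17.4 ± 2.06 CPM, 0.34 ± 0.10, edgeR adjusted p = 0.0046); its copy RN7SL1 and RN7SK were listed at 0, so RN7SL2 is uncertain. The 33 summed to 13.2 to 14.9 CPM in the libraries labelled WT and 15.5 to 19.8 CPM in those labelled knockout. Markers of other cell types were low, and their sums were higher under the knockout label. Calls among them stand beside the 26.7% of all genes tested that were called higher. The endothelial list (PECAM1, CDH5 and VWF called higher of 4, KDR near 0) summed to 13.4 to 16.6 against 19.7 to 22.0 CPM, the fibroblast list (COL1A1 higher of 6, COL1A2 and COL3A1 near 0) to 30.6 to 34.1 against 42.4 to 46.6 CPM, and the leukocyte list (LYZ higher of 6, PTPRC and CD3E near 0) to 2.73 to 3.01 against 4.31 to 5.37 CPM. The part of these RNAs in the histone values was not tested.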

How the data were processed

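RNA of T3M4 cells was extracted with a column kit and made into libraries with an NEBNext Ultra RNA kit, per the labels' protocols. The submitters' processing notes name fastp, HISAT2, STAR and DESeq and the builds GRCh38 and hg38; versions, roles, the read counter and its use of strand were not given in the sources used here. The values tested were raw counts per gene as the authors deposited them, with gene lengths deposited beside them. The authors' deposited comparison table gives log2 fold changes and adjusted p-values per the file headers; these are quoted only as theirs. All 58735 genes have the position and strand of GENCODE 29.

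Counts were fitted on the whole table with edgeR 4.0.16 under R 4.3.3 (TMM factors, filterByExpr with minimum count 10 and minimum total 15, glmQLFit with a two-sided glmQLFTest, and group as the only term), which tested 16655 genes with Benjamini-Hochberg adjustment over them. The fit step was tested on simulated data. CPM are scaled by TMM-adjusted library size, and CPM per kilobase divide by the deposited length. Totals of 19088927 to 28612621 counts leave genes under 1 CPM with few counts. Each pair of libraries within a group differed beyond sampling noise. Alternatives used DESeq2 1.42.0, limma 3.58.1, other scalings and filters, and each library left out.

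The members and lists were chosen with earlier results of these data known. Named are MUC16, the 4 most abundant members of each histone type, the 6 largest rises and falls past the threshold, members at the filter's edge, all tested HIST2, HIST3 and HIST4 members, and up to 4 genes of each other list with the largest changes; other members and list genes were named after their values were seen.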

Additional observations from a re-analysis of the deposited data

How the results depend on the processing

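The count of members called higher stayed between 18 and 22 under every alternative (20 as reported; 19 to 20 with 1 library left out), and no named member that was called changed direction. Among those not called, HIST2H3D had -0.28 with cyclic loess, -0.30 without knockout replicate 2 and -0.013 without WT replicate 3, HIST2H4B -0.55 and HIST1H3J 0.013 without knockout replicate 3. The 2 lower calls were less stable: 0 were left with DESeq2, upper-quartile factors, the stricter filter (50 counts in 3 libraries) or an adjusted p threshold of 0.01, and 0 to 2 with 1 library left out. The median log2 fold change was 0.34 with cyclic loess and 0.73 with the stricter filter, which tested 24 members, and 0.45 to 0.55 with 1 library left out. The difference in the share of counts was 0.0265 percentage points, 0.0234 on TMM-scaled totals, and 0.0253 to 0.0278 with 1 library left out. Of the alternatives chosen after seeing the data, limma-trend called 20 higher and 2 lower, and leaving out members that share over 50% of their 100-base stretches left 18 higher and 2 lower of 31. HIST2H4B passed without the filter (adjusted p = 0.0201) and HIST3H2BB with upper-quartile factors (0.0454). Replicate numbers are shared between the groups but do not pair the libraries: deviations of same-numbered libraries correlated across genes at 0.011, 0.021 and -0.0179. In a fit that adds a replicate block, 19 members were called higher and 1 lower. Depth limits the 20 tested members with a mean under 100 counts and the 33 not tested.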

Other observations

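HIST2H4B was not the only gene with a near-identical copy in which WT replicate 1 and knockout replicate 3 were high. MAGEA2 had 200, 32 and 31 counts under the WT label against 53, 50 and 170 under the knockout label. Its copy MAGEA2B had 62, 82 and 39 against 224, 82 and 105 counts. These genes were chosen after their values were seen.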
